A study of Mus musculus with 2 samples.

Results

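The genes described here encode the proteins of the cytosolic ribosome, and the measurement is how open the chromatin at their promoters was in mouse frontal cortex. They were chosen by gene symbol alone, as the protein-coding genes of GENCODE M21 with an Rpl or Rps symbol followed by a number and at most a single letter a, l, x or y, the P stalk genes Rplp0, Rplp1 and Rplp2, and Rpsa. That gave 80 of 21938 protein-coding genes: 31 small subunit genes, 46 large subunit genes and 3 P stalk genes, spread over 19 chromosomes. Of these, 14 lie on chromosome 7 and 4 on X.

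The study mapped DNase I cut sites in the frontal cortex of 10 day old female mice of the hybrid B6CASTF1/J, in which one parent was B6 and the other CAST. DNase I cuts DNA that is not packed into nucleosomes, so a peak of cuts marks open chromatin, and a short protected stretch inside such DNA, a footprint, can mark a bound protein. There were 2 libraries, labelled biological replicates 1 and 2 of 1 group, so no conditions were compared and no test between groups was possible. Both carry the same donor record and the mark "3x", which the labels do not explain, so the spread between them may be technical.

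A ribosome is built from ribosomal RNAs and one copy of nearly every ribosomal protein, so cells make these proteins in near-equal numbers. Many of their mRNAs start with a C followed by a run of pyrimidines, the 5′ TOP tract, through which the kinase mTOR and the RNA-binding protein LARP1 control their translation. In the cortex at this age neurons are still growing and forming synapses, which takes much protein synthesis.

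The sequences that carry what follows are the promoters with the strongest signal and the bases at the transcript start. The 3 promoters with the highest mean signal are shown first, from 120 bases before to 24 bases after the start, with the bases that lay under a footprint in both libraries in capitals. They are from GRCm38 (mm10), at chr5:115559347-115559491 (forward strand), chr2:26910644-26910788 (forward strand) and chr11:97782413-97782557 (reverse strand). Positions are counted from 0 at the annotated start, with upstream negative.
Rplp0: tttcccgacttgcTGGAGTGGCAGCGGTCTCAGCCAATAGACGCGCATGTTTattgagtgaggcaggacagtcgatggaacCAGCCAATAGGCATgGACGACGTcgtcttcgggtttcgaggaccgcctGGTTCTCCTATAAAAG
Rpl7a: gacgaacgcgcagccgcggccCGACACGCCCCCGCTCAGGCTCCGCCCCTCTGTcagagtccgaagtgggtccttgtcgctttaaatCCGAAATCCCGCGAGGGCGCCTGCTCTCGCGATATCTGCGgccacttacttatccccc
Rpl23: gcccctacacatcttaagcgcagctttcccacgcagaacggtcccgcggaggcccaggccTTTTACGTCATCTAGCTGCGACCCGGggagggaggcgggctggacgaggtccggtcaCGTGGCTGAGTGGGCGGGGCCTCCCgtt

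In Rplp0, 77 of the 145 bases were in capitals. They included 2 NF-Y matches, with the letters CCAAT, from -87 to -83 and from -36 to -32, and a TATA match from 17 to 22. In Rpl7a 73 bases were covered in both libraries, with the SP/KLF letters on the opposite strand from -78 to -73. In Rpl23 51 bases were covered, with TGACGT on the opposite strand from -56 to -51. An E-box lay across its start, from -5 to 0, and SP/KLF letters followed from 8 to 13. The letters of each motif are given with its counts below. A match is a description of the sequence and does not show which protein was there.

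Replicate 1 held 104654 peaks and 293484 footprints, and replicate 2 held 81654 peaks and 187137 footprints. The labelled tissue was checked against markers. Excitatory cortical neuron markers were open in 10 and 8 of 10 in replicates 1 and 2, astrocyte markers in 8 and 6 of 8, and inhibitory neuron markers in 6 and 6 of 9, where Lhx6, Sst and Vip had no promoter peak. Oligodendrocyte markers were open in 5 and 4 of 9, microglial markers in 3 and 2 of 7, and endothelial and mural markers in 7 and 5 of 9. Liver markers were at 0 of 6 in both libraries, muscle markers at 1 and 0 of 6, and erythroid markers at 1 and 0 of 4. A promoter peak was present at 66.1% (replicate 1) and 63.3% (replicate 2) of all protein-coding genes. Excitatory neuron and astrocyte markers exceeded those shares, inhibitory neuron markers were near them, and oligodendrocyte and microglial markers were below. Endothelial and mural markers exceeded them in replicate 1 only. Median promoter signal, defined below, was 1.35 and 1.31 for excitatory markers, against 1.38 and 1.56 over all genes. Markers of several cell types were open, but the counts do not show which cells were present. In bulk a site open in fewer cells cannot be told apart from one less open in each cell.

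Nearly every ribosomal protein gene had an open promoter, and the same genes were open in both libraries. Open here means that at least 1 peak reached into the 500 bp on either side of an annotated transcript start of the gene. By this rule 77 of the 80 genes (96.2%) were open in each library, against 66.1% of all protein-coding genes in replicate 1 and 63.3% in replicate 2. The 31 small subunit and 3 P stalk genes were all open, as were 43 of the 46 large subunit genes. With 1 principal start per gene the share stayed at 96.2% for the ribosomal protein genes and was 60.5% for all protein-coding genes (mean of the libraries). The members have more annotated starts, a median of 6 against 3.

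The 3 closed genes were Rpl3l, Rpl10l and Rpl39l. Rpl3l encodes a form of RPL3 made in striated muscle, and Rpl10l an autosomal copy of X-linked Rpl10 that is used in the testis. Rpl39l, a copy of X-linked Rpl39, is likewise known from male germ cells. Each had 0 peaks and 0 footprints within 500 bp of a start in both libraries, and 0 bases listed in the authors' table of significant cut rates. Their parent genes were open. In replicates 1 and 2, Rpl3 had signals of 7.73 and 9.73, Rpl10 had 3.07 and 3.94, and Rpl39 had 2.43 and 3.37. The other "l" copy was open. Rps27l, a p53 target gene, had 3.46 and 3.94, near its parent Rps27 with 3.19 and 4.34.

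Promoter signal was the highest peak value within 500 bp of a start. It is the authors' value for each peak, on a scale that is not stated, and is used here only to rank and describe genes. The median over the 80 genes was 5.37 in replicate 1 and 5.95 in replicate 2, a mean of 5.66 ± 0.415 (SD, n = 2), against 1.38 and 1.56 over all protein-coding genes, a mean of 1.47 ± 0.128 (SD, n = 2). The gap between the 2 sets of genes was larger than the spread between libraries. Among open genes it was smaller but present: the 77 open members had medians of 5.40 and 6.12, against 3.34 and 3.76 over the 13776 genes open in both libraries. All 77 lay above the median of all genes in both libraries, 48 lay in the highest quintile in each, and 27 and 28 in the highest 10%.

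**Figure D1:**
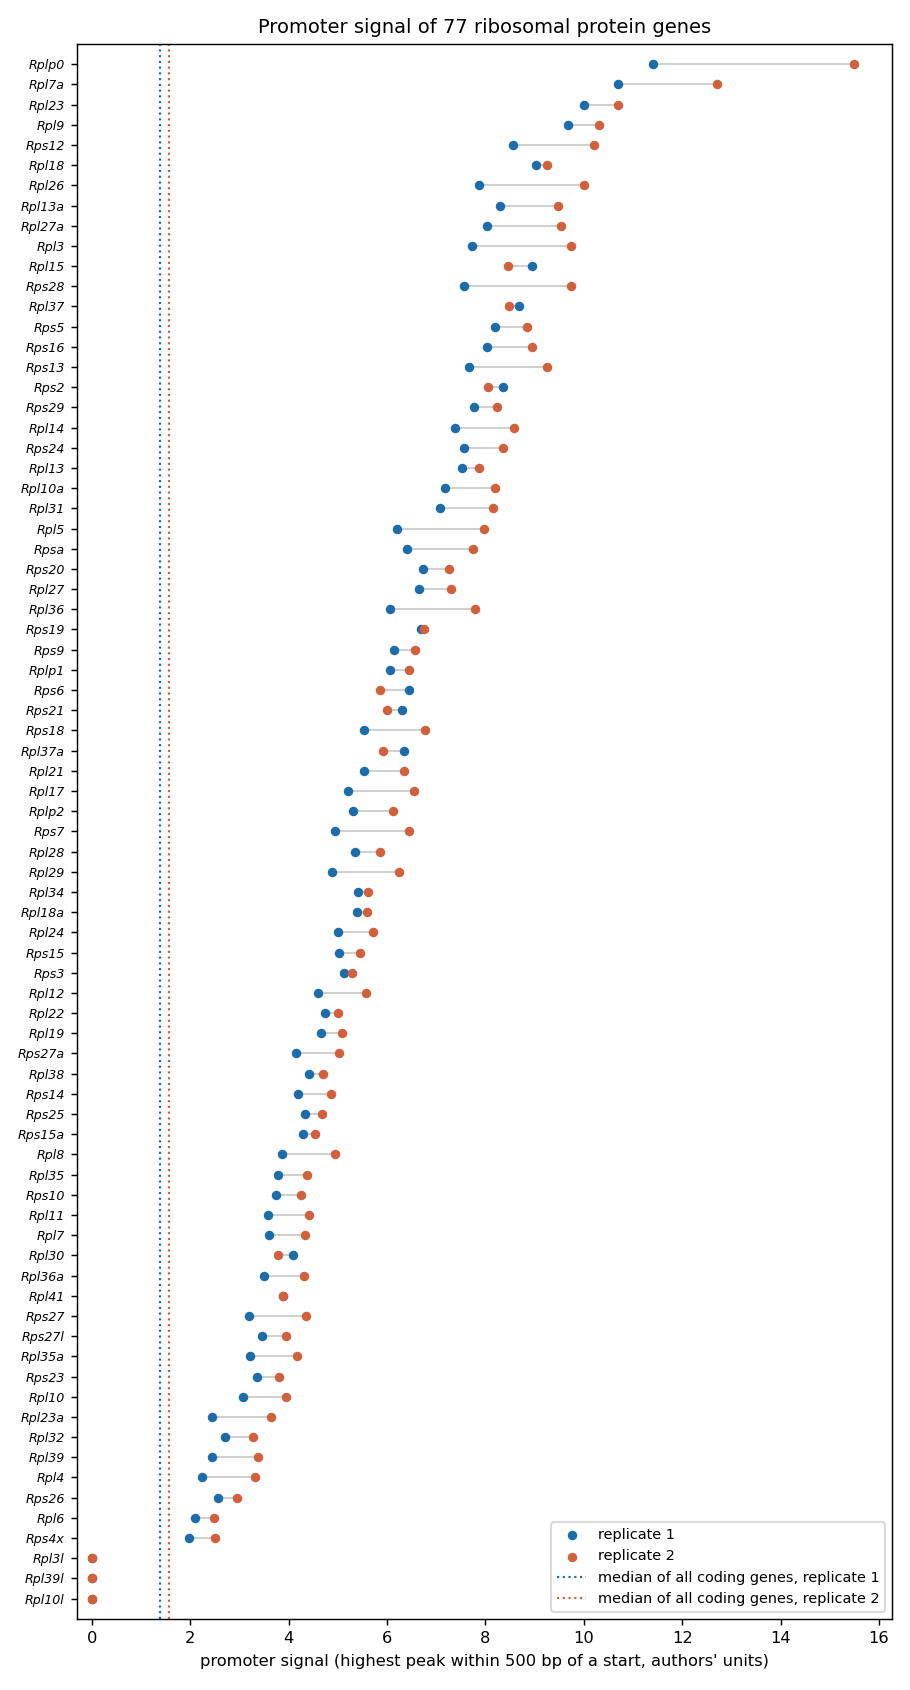
Promoter signal of 77 of the 80 ribosomal protein genes (horizontal axis, authors' units) in replicate 1 (blue) and replicate 2 (orange), ordered by the mean of both, with dotted lines at the medians of all protein-coding genes (1.38 and 1.56). The 74 open genes drawn all lie to the right of both lines, and Rpl3l, Rpl10l and Rpl39l lie at 0.

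**Figure D2:**
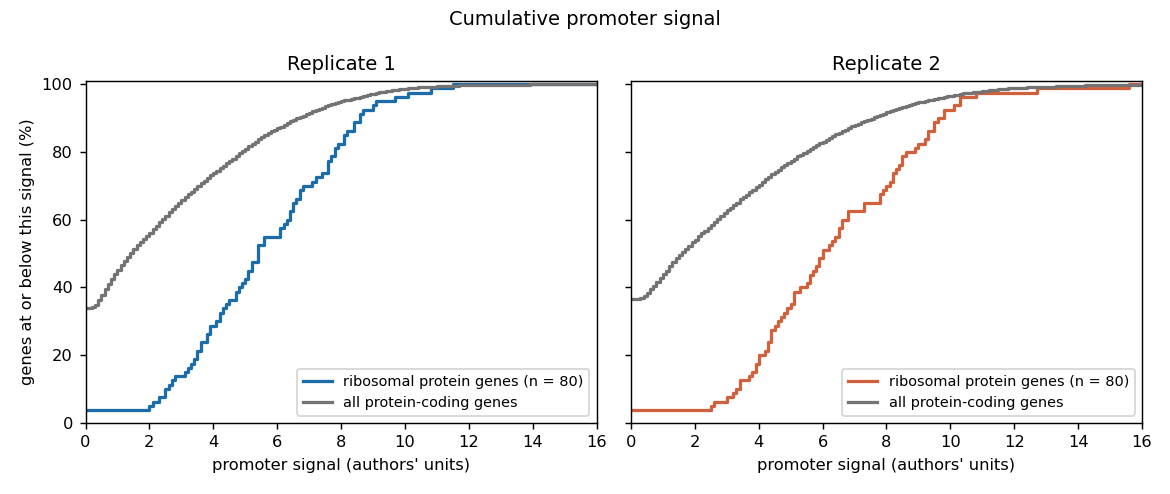
Share of genes at or below each promoter signal, for the 80 ribosomal protein genes (coloured) and all 21938 protein-coding genes (grey), in replicate 1 (left) and replicate 2 (right). The curve for ribosomal protein genes lies to the right over most of the range and meets the other near its top, while single promoters of other genes reach 28.5 and 32.2, beyond the axis.

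Rplp0, the scaffold of the P stalk that recruits translation factors, led with 11.4 in replicate 1 and 15.5 in replicate 2. The remaining P stalk genes, Rplp1 and Rplp2, were near the middle, with 6.06 and 6.44 for Rplp1 and 5.31 and 6.12 for Rplp2. The 3 proteins sit together in one stalk, and the Rplp0 signal was well above the other two in both libraries.

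Among large subunit genes, Rpl7a had 10.7 and 12.7 and Rpl23 had 10.0 and 10.7. Rpl9 had 9.68 and 10.3, from a start region shared with the lipoic acid synthase gene Lias, whose start lies 53 bp away on the other strand. Rpl26, whose protein also binds the p53 mRNA, had 7.86 and 10.0. Rpl13a, whose protein leaves the ribosome to silence inflammatory mRNAs in human monocytes, had 8.30 and 9.47. Rpl18 had 9.02 and 9.26, but that peak was centred 2583.5 bp from its principal start in replicate 1, at another annotated start near Sphk2. At the principal start Rpl18 had 7.52 and 8.39. Of the small subunit genes, Rps12 had the highest mean signal, with 8.55 and 10.2.

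The lowest open member was Rps4x, the X-linked gene for a small subunit protein, with 1.98 and 2.50. Rpl6 followed with 2.09 and 2.47, and Rps26, whose protein lines the mRNA exit channel, had 2.57 and 2.95. Rpl4 had 2.23 and 3.32 and Rpl39 had 2.43 and 3.37, and both encode proteins that line the tunnel through which the new chain leaves. Rpl23a, at the end of that tunnel, had 2.44 and 3.63, and Rpl32 had 2.71 and 3.27. With these genes ordered by mean signal, neighbours apart from Rpl6 and Rps26 differed by less than the libraries did. The median was 6.13 and 6.45 for the small subunit and 5.10 and 5.66 for the large subunit.

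Promoter signal varied with the sequence and place of the gene. Across the 77 open genes Spearman's rho of signal with the GC content of the promoter was 0.603 in replicate 1 and 0.559 in replicate 2. With the CpG observed/expected ratio it was 0.387 and 0.384. These genes share their libraries, and base composition can itself bear on cutting and sequencing, so the values are descriptions only. The 4 X-linked genes (Rpl10, Rpl36a, Rpl39 and Rps4x) had a median of 2.75 and 3.65, against 5.53 and 6.35 for the 73 open autosomal members. Rpl36a was the highest of them, with 3.49 and 4.30. The X chromosome was low for other genes too, with 1.73 and 1.86 over 452 open X-linked genes and 3.44 and 3.87 over 13324 open autosomal genes. Mice labelled female carry 1 active and 1 inactive X in each cell, and the part of that in these values was not tested.

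Of the members, 29 host snoRNAs in their introns, 56 in all, which guide the modification of ribosomal RNA. The hosts had a median signal of 6.21 and 7.25, against 5.18 and 5.86 for the 48 open members that host none. The ranges overlapped almost completely, from 2.09 to 10.7 in hosts and from 1.98 to 11.4 in non-hosts in replicate 1. In 14 members the strongest promoter peak also lay within 500 bp of the start of another coding gene, as for Rpl7a with Med22, Rpl15 with Nkiras1 and Rps28 with Ndufa7. For Rps10 that other gene was the entry RPS10-NUDT3, whose name includes Rps10 itself. The share of all coding genes with such a neighbour was not measured, so the count is not a trait of the members. Those 14 had 4.46 and 5.29, against 5.53 and 6.24 for the 63 others.

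The open promoters were compact. The strongest peak had a median width of 240 bp in both libraries, the same as over all protein-coding genes. All peaks together covered a median of 300 bp and 300 bp in the 77 open members, against 420 bp and 380 bp in all genes open in both libraries. Low cover was not particular to the members. It was 280 bp and 260 bp in mitochondrial ribosomal protein genes, and 650 bp and 560 bp in translation factors. A single peak was found at 44 members in replicate 1 and 45 in replicate 2, and no member had more than 4. The median number of peaks was 1 in both libraries, as over all protein-coding genes, against 2 and 1 over genes open in both libraries. The strongest peak covered the principal start in 60 and 62 members. For this count and that of single peaks the share of all genes was not measured, so neither is a trait of the members. Any peak at all covered the principal start in 81% of the members in both libraries, against 74% and 70% of genes open in both. The centre of the strongest peak lay within 100 bp of that start in 52 and 55 of 77, against 53.3% and 52.8% of all open genes. The median centre was at -4.5 bp, against -26.5 bp over genes open in both libraries.

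**Figure D3:**
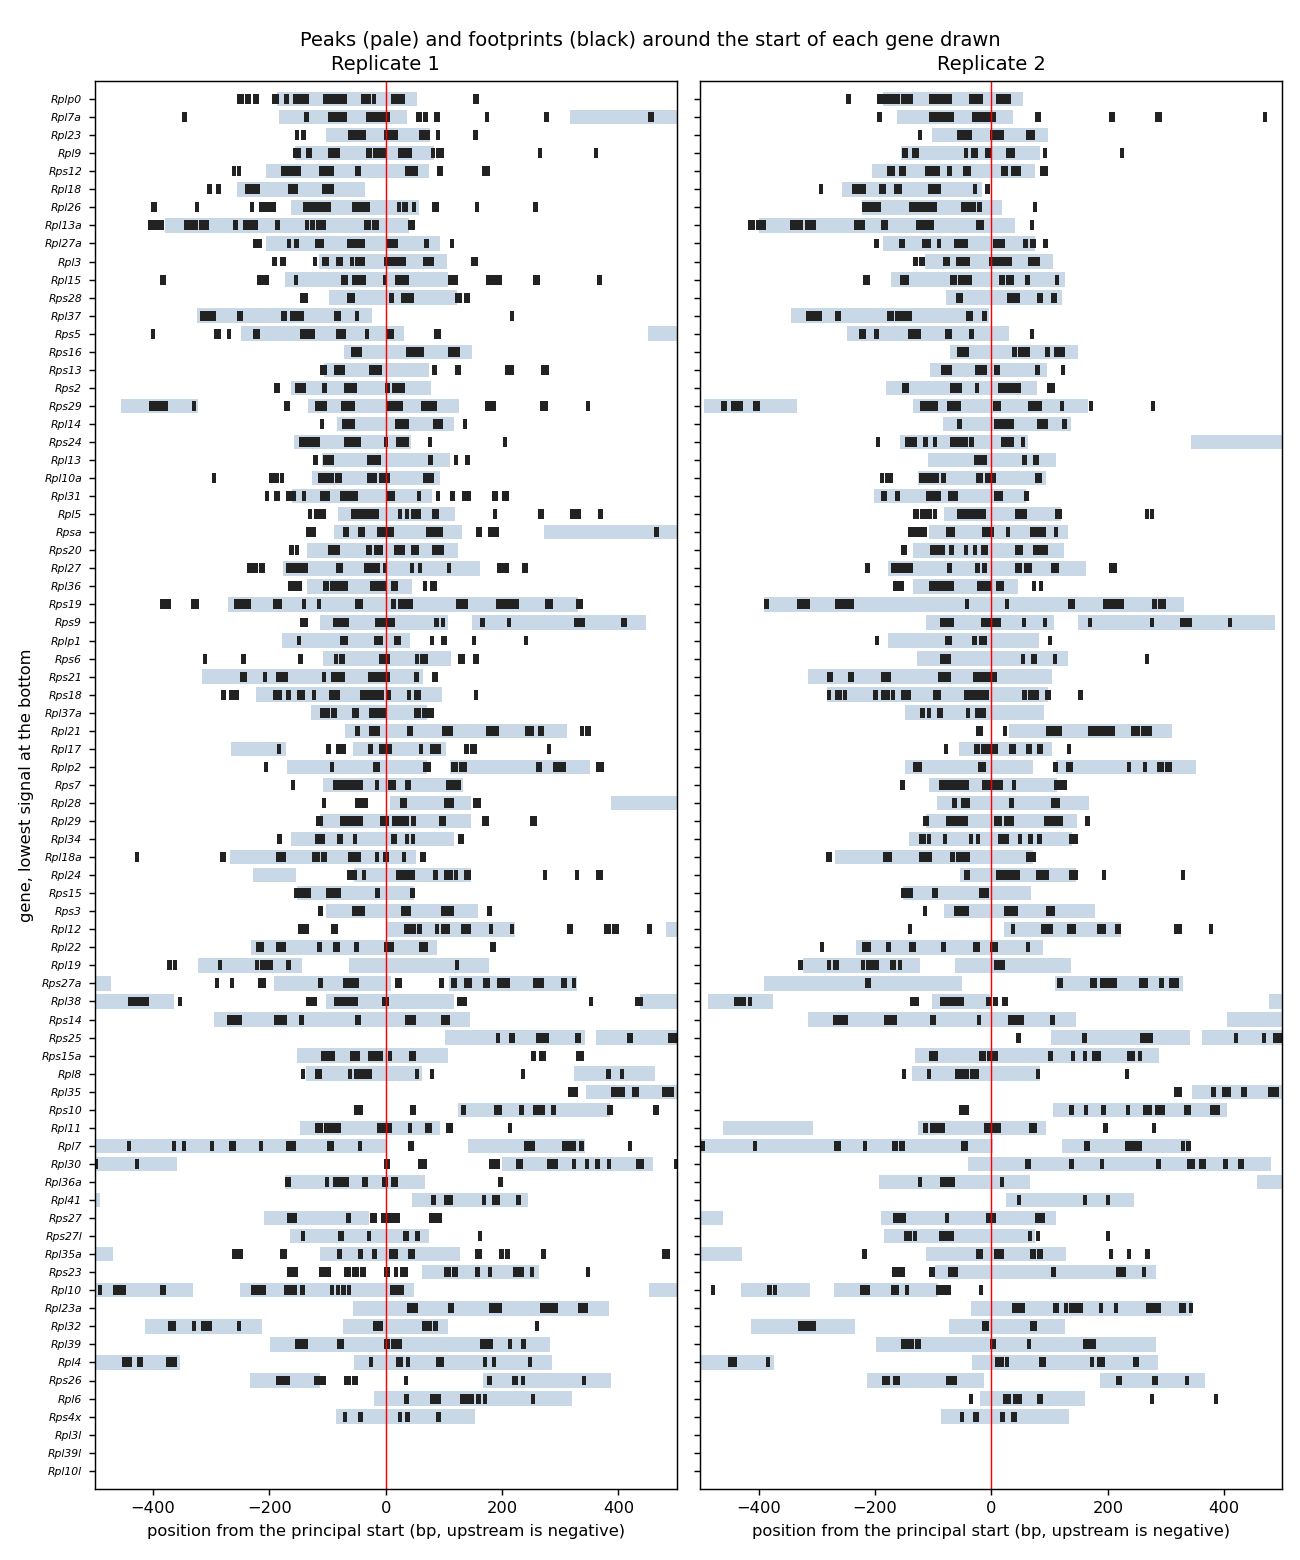
Peaks (pale bars) and footprints (black bars) within 500 bp of the principal start (red line) of 77 of the 80 ribosomal protein genes, in replicate 1 (left) and replicate 2 (right), with position in bp on the horizontal axis and the gene of highest mean signal at the top. Most genes have 1 block of peaks over the start, while some near the bottom, such as Rpl6 and Rpl23a, have it mainly downstream.

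Footprints were found at every open member. At least 1 footprint lay within 500 bp of a start at 77 of 80 members (96.2%) in both libraries, against 65.0% of all protein-coding genes in replicate 1 and 61.2% in replicate 2. Over all 80 the median was 8.0 and 6.5 footprints per gene, against 5 and 4. Among open genes the counts were closer, at 9 and 7 in members and 8 and 6 in all, but the members' footprints lay in less open sequence. Footprints inside a peak and within 500 bp of a start were divided by the full length of the peaks there. The members had medians of 1.84 and 1.67 per 100 bp, against 1.45 and 1.29 in all open genes. Parts of a peak beyond 500 bp add length but no footprints, which lowers the value for genes with such peaks. Signal differed between those sets, so genes of at least the members' median signal were set side by side: 40 members had 1.98 and 1.78 per 100 bp and 3628 genes of that height had 1.74 and 1.67. At like signal the gap between the sets was thus near the gap between the libraries. The medians in these sets were higher in replicate 1, and the depth of the libraries is unknown. A high density was not particular to the members. Among gene groups described below, all open, mitochondrial ribosomal protein genes had 1.89 and 1.82 per 100 bp, and translation factors 1.40 and 1.42.

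By the mean of the libraries Rpl18 had the most footprints, 18 in replicate 1 and 12 in replicate 2, over more than one start region. Rpl7 had 15 and 12, Rps18 had 13 and 13, Rps19 had 14 and 11, and Rps24 and Rpl12 followed with 11 and 13 for Rps24 and 14 and 10 for Rpl12. Rps19, whose human gene is mutated in Diamond-Blackfan anaemia, had its footprints spread from well upstream to well into the gene. At the low end Rps15 had 4 and 3. Around the principal starts of the 80 genes, 658 footprints were listed in replicate 1 and 506 in replicate 2, with a median width of 11 bp in both. Of these, 55.8% in replicate 1 and 72.9% in replicate 2 overlapped a footprint of the other library, against 37.3% and 60.3% of all footprints. All footprints include those far from starts, and footprints at other promoters of like signal were not compared.

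By position, the single base with the highest footprint cover lay upstream of the start, while footprints as a whole lay on both sides. In the members, 302 lay upstream and 328 downstream in replicate 1, and 249 and 239 in replicate 2. In replicate 1 the cover reached 41.2% of the 80 members (33 genes) at -51 bp, and in replicate 2 35.0% (28 genes) at -71 bp. Over all genes open in both libraries the highest cover was 28.0% and 24.5%, at -15 bp in both. At the start base itself it was 35.0% and 22.5% in the members, against 24.2% and 20.5% in all open genes. With 80 genes, 1 gene is 1.25% of the set, so the exact position of the maximum is loosely set and its height can be raised by noise. Averaged over 10 bp, the highest cover was 34.0% and 29.9% in the members, against 27.7% and 24.2% in all open genes.

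**Figure D4:**
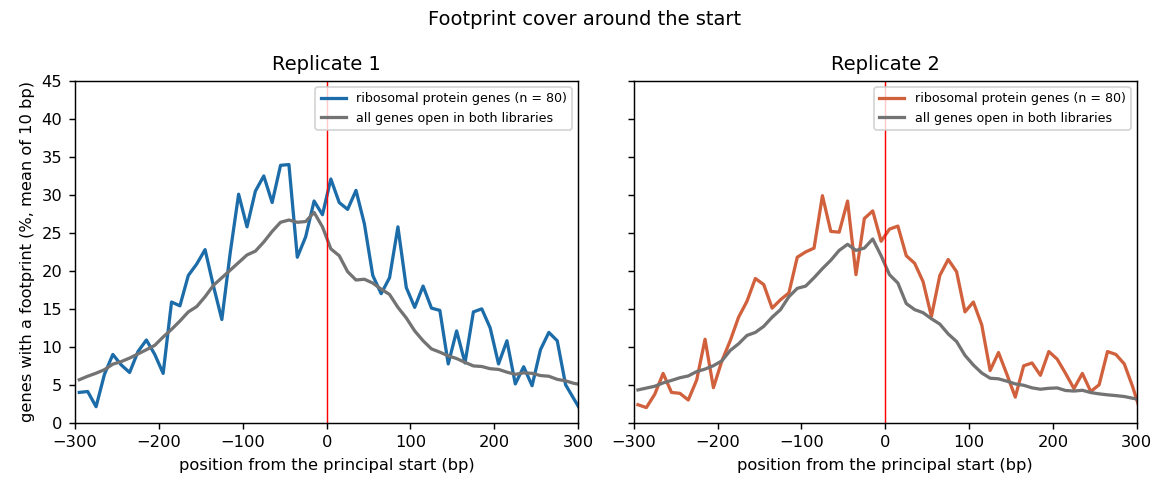
Share of genes with a footprint over each position (mean of 10 bp) within 300 bp of the principal start, for the 80 ribosomal protein genes (coloured) and all genes open in both libraries (grey), in replicate 1 (left) and replicate 2 (right). The coloured line is the higher one over most of the region from -200 to 200 bp and is jagged because it rests on 80 genes.

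Motifs were then counted as exact matches on both strands from 250 bp before to 50 bp after the principal start, in all promoters alike. The ETS core CCGGAAG, the site of GABPA and its relatives, was in 25 members (31.2%), against 11.2% of all promoters and 16.2% of those open in both libraries. CTCGCGAG, found in many housekeeping promoters and a site of ZBTB33, was in 9 members (11.2%), against 1.19% of all and 1.76% of open promoters. ACTACAA, part of the ZNF143 site, was in 11 (13.8%), against 3.76% and 4.03%. In contrast the SP/KLF letters GGGCGG, which were in 41 members (51.2%), were in 45.3% of all and 63.3% of open promoters, and CCAAT was in 25 members (31.2%), against 38.6% and 37.9%.

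Less frequent motifs had few members each. The CRE TGACGTCA was in 5 members (6.25%), against 2.50% of all and 3.38% of open promoters, and its TGACGT part, which is counted inside every CRE as well, was in 13 (16.2%), against 8.82% and 11.6%. The YY1 letters AAGATGGC were in 5 (6.25%), against 3.09% and 4.30%, and the NRF1 letters GCATGCGC were in 4 (5.0%), against 3.73% and 4.99%. The E-box CACGTG, which MYC and its relatives bind, was in 9 (11.2%), against 7.72% and 9.76%. The TATA letters TATAAA were in 9 (11.2%), against 12.6% of all and 7.07% of open promoters, and 6 of the 10 matches lay at or after the annotated start. The percentages of such small sets move by more than 1 point with a single gene.

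**Figure D5:**
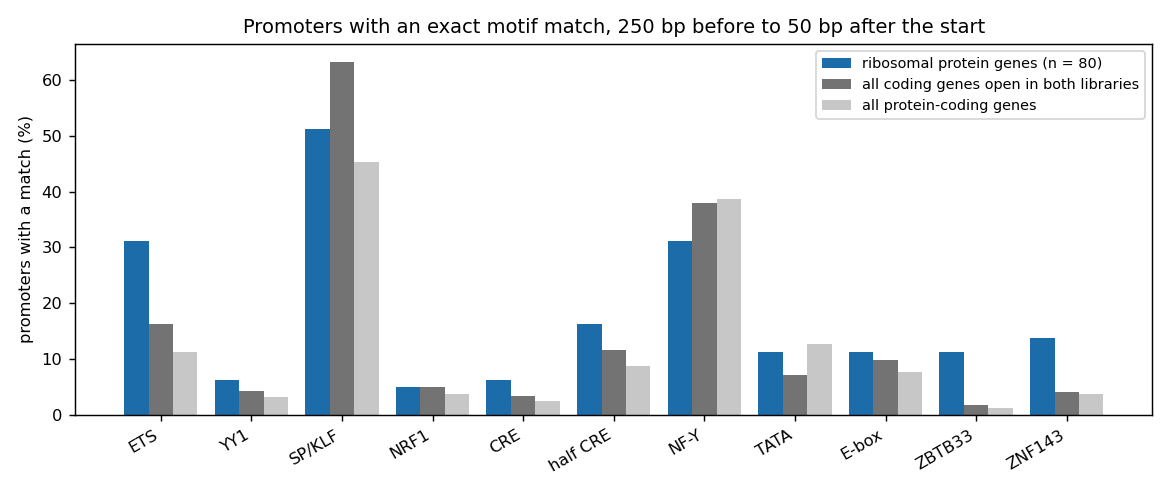
Percentage of promoters with at least 1 exact match to each motif, for the 80 ribosomal protein genes (blue), all protein-coding genes open in both libraries (dark grey) and all protein-coding genes (light grey). ETS, ZBTB33 and ZNF143 matches have the tallest blue bars relative to both grey bars, while SP/KLF and NF-Y matches are below the open genes.

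Whether a match lay under a footprint differed between motifs. Of 66 SP/KLF matches in members, 43 were at least 0.5 covered in replicate 1 and 46 in replicate 2, against 53.4% and 45.8% of the matches in other open promoters. Of 33 ETS matches 10 and 8 were covered, so 30.3% and 24.2%, against 34.3% and 29.3%. Of 9 ZBTB33 matches 5 and 3 were covered, against 49.2% and 35.9% elsewhere. Of 12 ZNF143 matches 2 and 1 were covered, against 18% and 9.57%. Of 10 TATAAA matches 5 were covered in both libraries, against 11.4% and 9.19% elsewhere, and of 5 CRE matches 4 were covered in both, against 85.8% and 81.4%. The member counts include closed members, while the other promoters were all open. The ETS matches in closed Rpl39l and the SP/KLF and ZNF143 matches in closed Rpl10l had no footprint, which lowers the members' shares.

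The matches printed here were under a footprint in both libraries and are shown with 20 bases on each side and the motif in capitals. The CRE matches are at chr8:123102306-123102353 (forward strand), chr7:109519078-109519125 (forward strand), chr12:69159223-69159270 (reverse strand) and chr7:3703964-3704011 (forward strand), and a ZBTB33 match in Rpl26 is at chr11:68901521-68901568 (forward strand).
Rpl13: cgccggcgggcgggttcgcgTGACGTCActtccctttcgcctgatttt
Rpl27a: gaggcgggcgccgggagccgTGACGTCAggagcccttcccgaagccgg
Rps29: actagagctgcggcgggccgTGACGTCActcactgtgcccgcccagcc
Rps9: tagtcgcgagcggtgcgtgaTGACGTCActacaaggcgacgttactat
Rpl26: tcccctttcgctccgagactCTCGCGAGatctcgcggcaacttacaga
The 4 CRE matches start at -24, -49, -64 and -9, all within 100 bp of the start. In Rps9 the last base of the CRE, at -2, is the first of an ACTACAA match, which was the one ZNF143 match covered in both libraries.

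The start base was C in 24 members (30%), against 17.5% of all protein-coding genes. A TOP tract, taken as a C at the principal start followed by at least 4 pyrimidines, was found in 8 members (10.0%), against 2.28% of all. Of the 5 longest, 4 are shown from 25 bases before to 19 bases after the start base, with the tract in capitals, at chr14:24490693-24490737 (forward strand), chr9:64173350-64173394 (forward strand), chr15:5116620-5116664 (forward strand) and chr2:180257352-180257396 (forward strand).
Rps24: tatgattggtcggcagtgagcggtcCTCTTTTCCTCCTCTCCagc
Rpl4: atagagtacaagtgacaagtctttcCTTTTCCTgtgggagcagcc
Rpl37: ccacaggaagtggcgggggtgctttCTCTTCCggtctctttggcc
Rps21: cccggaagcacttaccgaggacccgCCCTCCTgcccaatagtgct
The tract was 17 bases in Rps24, 8 in Rpl4, and 7 in Rpl37 and Rps21. These promoters were not alike in signal: Rpl37 had 8.69 and 8.47, Rps24 had 7.57 and 8.36, Rps21 had 6.31 and 5.99, while Rpl4 was among the lowest members.

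The count of tracts depended on which base is taken as the start. With any annotated coding transcript start it was 22 members (27.5%), against 5.11% of all genes. A gene with more starts has more chances in such a reading, and members have a median of 6 annotated starts against 3. With any start in the RefSeq table, which matched 60 members, it was 13 (21.7%), against 2.71%. The nearest RefSeq start was the same base in 14 of those 60, downstream in 38 and upstream in 8, with a median shift of 12 bp downstream. With any base within 5 bp of the GENCODE start it was 23 members (28.8%), against 18.3%. The share was above that of all genes in each of these readings, but its size moved more than 2-fold with the annotation.

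The libraries were close for these genes. Across the 77 open genes, the log2 signals had a Pearson's r of 0.97 and a Spearman's rho of 0.965, given as a description across genes. Over all genes open in both libraries, replicate 1 was lower by a median log2 ratio of -0.17. Relative to that shift the members' median was -0.03 with an SD of 0.16, against an SD of 0.23 over all those genes, with 32 relatively higher in replicate 1 and 45 in replicate 2. Rps6, the S6 kinase substrate, stood highest at 0.31, followed by Rpl30 at 0.28 and Rpl37a at 0.27. Rpl4 and Rpl23a were lowest at -0.40. With 2 libraries none of these can be told from noise, and before centring 69 of 77 were higher in replicate 2.

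Distal open sites lay near most of these genes. A distal site, a peak centred over 1000 bp from every annotated start and within 20 kb of the gene body, was found near 60 members (75%) in replicate 1 and 53 (66.2%) in replicate 2, against 73.3% and 67.4% of all protein-coding genes and 84.6% and 78.5% of genes open in both libraries. The order of the sets turned with the reach: as means of the libraries, 46.9% of members had a site within 10 kb, against 59.7% of all genes, and 93.8% had one within 50 kb, against 83.9%. Counting only sites over 2000 bp from every start, 59.4% of members had one within 20 kb, against 63.8% of all genes. The members are short, with a median gene length of 3328 bp against 17425 bp, so less sequence was searched. The part of that in these shares was not tested. There were 130 and 99 such sites, of which 87 and 87 overlapped a peak of the other library, and 7 and 5 lay inside the gene. Their median signal was 0.940 and 1.47, against 0.505 and 0.733 for all distal peaks. The latter include peaks far from any gene, and sites within 20 kb of other genes were not measured apart, so the difference is not a trait of the members. Proximity does not show that a site acts on the gene.

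The sites named next were among the 5 strongest in at least 1 library. The strongest lay upstream of Rpl29, at chr9:106418281-106418580 in replicate 1, with a signal of 4.69 there and 5.47 in replicate 2. That was close to the Rpl29 promoter itself, with 4.88 and 6.24. A further site upstream of Rpl29, at chr9:106421881-106422060, had 2.86 and 3.57. Downstream of Rplp1, chr9:61898521-61898700 had 3.31 and 4.20, and chr9:61899901-61900100 had 2.34 and 3.39. Near Rpl12, chr2:32966821-32967180 had 3.05 and 3.09, and near Rpl41, chr10:128536361-128536540 had 2.85 and 3.21. The site downstream of Rps24, at chr14:24500601-24500820, had 2.29 and 3.38. All of these lay outside the gene named, were found in both libraries and held 2 to 6 footprints.

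Ribosomal protein genes have many processed pseudogene copies, and these were nearly all closed. Of 293 pseudogenes named as copies of ribosomal protein genes, 8 (2.73%) had a peak within 500 bp of the start in replicate 1 and 7 (2.39%) in replicate 2, against 3.41% and 2.44% of all 10236 processed pseudogenes. The strongest was Rpl29-ps2, with 3.35 and 3.70, whose start lies 160 bp from that of the coding gene Akr1e1. The other open copies had at most 1.06. Because such copies repeat the transcribed sequence, the bases within 500 bp of each member's start were checked for 32-base words found elsewhere in the genome. A median of 10.1% of bases were repeated, with 0% upstream of the start and 13.3% downstream, and the highest shares were in Rpl37a at 60.4% and Rpl10l at 53.6%. Open members with at least 10% repeated bases had a median signal of 6.06 and 6.45 (39 genes), against 5.23 and 5.45 for the 38 others. The treatment of reads that map to several places is not stated in the labels or files.

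Other genes of protein synthesis had open promoters as well. All 7 further ribosomal protein genes and relatives whose symbols the rule leaves out were open, with a median of 7.33 and 8.88. Among them Rps3a1 had 8.69 and 11.0 and Fau had 9.69 and 9.81. Translation factors were open in 18 of 18, with a median of 7.23 and 7.73, from Eif4a1, an RNA helicase, at 11.3 and 15.1 to Eef1a2, the elongation factor form of mature neurons and muscle, at 1.95 and 3.15. Genes of ribosome assembly were open in 16 of 16, with a median of 5.13 and 6.27, led by Nop56 at 9.49 and 12.9.

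Genes of mTOR signalling and TOP mRNA control were open in 15 of 15, with a median of 5.33 and 6.68. Rheb, the direct activator of mTOR complex 1, had 8.60 and 9.83, and Larp1 had 2.47 and 2.35. Genes of RNA polymerases I and III were open in 13 of 13, with 3.85 and 4.49. Mitochondrial ribosomal protein genes were open in 78 of 78, with a median of 3.98 and 4.59, which lay below the 5.37 and 5.95 of the cytosolic set in both libraries. The cytosolic genes were thus neither the most often open nor the strongest of these groups.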

How the data were processed

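DNase-seq output of 2 libraries of 1 group was used. Per the text files deposited with the data, peaks, footprints and cut rates were called per library from filtered alignments to mm10. The aligner and callers, with their versions and thresholds, are not named in the labels or files. The signal of a peak is as the authors deposited it, and its scaling is not stated. The deposited footprint score was 0.01 in every row, so footprint positions alone were used. The deposited false discovery rate of the cut rate (a p-value type of measure) served to count listed bases around each start. Depth is unknown, so no interval or floor is given.

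From these files, peaks of the longer list of each library were set against GENCODE M21 and GRCm38.p6 with Python 3.11.15, numpy 2.4.6, pandas 2.3.3, pysam 0.24.0 and samtools 1.23.1. An overlap was at least 1 bp. The principal start was that of the protein-coding transcript ranked first by APPRIS, CCDS, basic tag, support level and 5′ position. Motif matches counted as footprinted when footprints covered 0.5 or more of their bases. With 1 group, everything is given by counts and medians beside the same over all genes, with no test. The genes, lists, motifs and alternatives were chosen with earlier results of these data known.

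Members named with values were the 8 highest and 8 lowest by mean promoter signal, closed members, P stalk, paralog, parent and X-linked members, and the extremes of replicate difference, footprints, distal sites and tract length. Others named serve as single examples chosen after their values were seen. A few genes and sequences that this rule selects are not reported here. Code was tested on simulated data.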

Additional observations from a re-analysis of the deposited data

How the results depend on the processing

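No paired analysis was possible because the 2 libraries form 1 group, with no other group to pair. Leaving out either library gave 96.2% open in both cases, a median promoter signal from 5.37 to 5.95, a width of 240 bp, an offset of -4.5 bp, 6.5 to 8.0 footprints per member, 66.2% to 75% of members with a distal site and 2.39% to 2.73% of pseudogene copies with a peak. The open share was 91.2% with the annotated gene start only, against 59.4% of all genes. It was 96.4% with 3 ribosomal protein genes outside the symbol rule added. Summing peaks gave a median signal of 6.53, and counting footprints inside promoter peaks gave 5.50 per member. The distal share was the least settled: 56.9% with the shorter peak list, 60% with the strongest 50% of peaks, 63.1% with shared peaks, 93.8% within 50 kb, 46.9% within 10 kb and 59.4% over 2000 bp from starts. Within 50 kb and 10 kb the share over all genes was 83.9% and 59.7%, and over 2000 bp from starts it was 63.8%. Which set is higher thus changed with the reach, and the members were also lower with the larger distance from starts. The cause was not tested. Without centring, the median log2 difference between replicates was -0.20. The TOP tract share was 28.8% within 5 bp of the start, 3.75% with at least 7 pyrimidines, 27.5% with any coding start and 21.7% with RefSeq starts, the last chosen after seeing the data. Over all genes these shares were 18.3%, 0.734%, 5.11% and 2.71%, in that order. Pseudogene copies with a peak were 1.19%, 1.02% and 1.88% with the shorter list, the strongest 50% and shared peaks, 1.02% within 100 bp and 9.90% within 2000 bp. The planned use of peak summits could not be run, since the deposited summit column holds one constant.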
